A study of Mus musculus with 16 samples.

Results

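The matrix metalloproteinases (Mmp), the ADAMTS proteases (Adamts), the ADAMTS-like proteins (Adamtsl) and the tissue inhibitors of metalloproteinases (Timp) were followed across sorted cell fractions of embryonic mouse skin. Members were the rows of the expression table whose gene symbol begins with Mmp, Adamts or Adamtsl followed by a number, or is Timp1, Timp2, Timp3 or Timp4. The rule gave 51 of the 23235 rows: 23 Mmp, 19 Adamts, 5 Adamtsl and 4 Timp genes. It used names and no measured value. Of these, 35 passed the filter on low values and were tested: 11 Mmp, 18 Adamts, 3 Adamtsl and 3 Timp genes.

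Mmp and Adamts proteins are zinc proteases that cut the proteins and proteoglycans around cells. Most are made as inactive precursors and act only after a propeptide is removed. Membrane-type Mmp proteins stay on the cell surface, secreted Mmp proteins and Adamts proteins act in the matrix, Adamtsl proteins resemble Adamts proteins but lack the protease domain, and Timp proteins bind the active sites and block them. In skin these proteases are known for remodelling collagen, versican and basement membrane as the dermis and its appendages take shape.

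RNA came from mouse skin at embryonic day 14.5 that had been divided by fluorescence-activated cell sorting. There were 16 libraries, 2 for each of 8 fractions that the labels call Pc, Epi, Fb, DC, DCSch, Sch, Mc and Neg. The labels do not spell the names out, and they are read here as placode, epidermis, fibroblast, dermal condensate, condensate together with Schwann cells, Schwann cell, melanocyte and a fraction negative for the sort. A placode is the local thickening of the epidermis from which a hair follicle grows, and the condensate is the cluster of dermal cells under it. All 16 libraries share the stage and the tissue; no strain, genotype, treatment or sorting marker is given in the sources used here, and no label says that the 2 replicates of a fraction came from separate embryos or litters. The p-values therefore measure the spread between these samples, which may be technical. Values are FPKM, fragments scaled for transcript length and for the library, summing to between 439201 and 606437 per library; the number of fragments behind them is unknown. Marker lists went with the fraction names: the summed FPKM of 6 condensate markers was 2422 and 1275 in the DC libraries and at most 73.6 outside DC and DCSch, and that of 6 fibroblast markers was 7855 and 6399 in Fb. Markers named for one fraction were also read in others, unequally within a list. The 5 placode markers summed to 81.9 and 62.1 FPKM in Pc and to 32.1 and 20.8 in Epi. Epi also summed to 165 and 238 FPKM over 6 melanocyte markers, against 6469 and 4885 in Mc. The DC libraries summed to 1954 and 1596 FPKM over the fibroblast markers, of which Col3a1 gave 1099 and 959.6; Pdgfra stood at 81.7 and 101 FPKM in DC against 116 and 149 in Fb, and Dpt at 4.09 and 3.64 against 230 and 245. Mc summed to 577 and 412 FPKM over 7 epidermis markers, of which Cdh1 gave 224 and 236, as in Epi (252 and 241), while Krt5 stood at 142 and 76.1 in Mc against 1355 and 1104 in Epi. Neg held 32118 and 35046 FPKM of 4 erythroid markers and 2519 and 2295 of 5 skeletal muscle markers. What these markers' presence contributes to the results below was not tested. A lower level in a bulk fraction can come from fewer cells of a type or from less RNA per cell, which cannot be told apart.

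Of the 15 members under 1 FPKM in every fraction, 9 lie in 1 run of Mmp genes, whose promoters differed in sequence from those of the abundant members. This run of 10 genes on chromosome 9, Mmp13, Mmp12, Mmp1b, Mmp3, Mmp1a, Mmp10, Mmp8, Mmp27, Mmp20 and Mmp7, spans chr9:7272514-7699416 of the mm10 build, 427 kb. It holds the collagenases and stromelysins known from wound healing and inflammation. The highest value of any of the 10 in any library was 2.17 FPKM, and 5 of them were listed at 0 in all 16. Promoters of 300 bases, from 250 before the annotated start to 50 after it, were taken from RefSeq on the GRCm38.p6 build: 39 promoters of 36 members were matched. Both strands were searched for TATAAA, a core element near the start of many genes, for TGANTCA, the site type bound by AP-1 factors, and for GGGCGG, the GC box. One promoter each of Mmp14 and Adamts18, members reaching 10 FPKM, and of Mmp3 and Mmp13, cluster members under 1 FPKM in every fraction, are printed to show the contrast, 5′ to 3′ on the gene's strand, with matches in capitals. In Mmp3 and Mmp13 the capitals are TGANTCA first and TATAAA after it. In Mmp14 they are adjoining GC boxes, and in Adamts18 a GC box read from the other strand.
Mmp14 (chr14:54431348-54431647, plus strand): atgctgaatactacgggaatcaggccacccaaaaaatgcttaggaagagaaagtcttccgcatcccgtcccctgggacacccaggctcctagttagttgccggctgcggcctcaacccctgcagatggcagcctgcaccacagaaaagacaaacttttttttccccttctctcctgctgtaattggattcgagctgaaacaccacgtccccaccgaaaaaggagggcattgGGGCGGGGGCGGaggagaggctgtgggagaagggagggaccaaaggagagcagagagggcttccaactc
Adamts18 (chr8:113848790-113849089, minus strand): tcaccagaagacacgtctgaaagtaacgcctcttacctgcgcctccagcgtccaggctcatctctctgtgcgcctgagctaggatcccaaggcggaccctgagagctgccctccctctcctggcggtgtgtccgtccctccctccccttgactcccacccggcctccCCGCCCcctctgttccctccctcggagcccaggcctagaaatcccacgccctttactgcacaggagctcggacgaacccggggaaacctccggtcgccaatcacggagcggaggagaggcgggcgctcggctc
Mmp3 (chr9:7445572-7445871, plus strand): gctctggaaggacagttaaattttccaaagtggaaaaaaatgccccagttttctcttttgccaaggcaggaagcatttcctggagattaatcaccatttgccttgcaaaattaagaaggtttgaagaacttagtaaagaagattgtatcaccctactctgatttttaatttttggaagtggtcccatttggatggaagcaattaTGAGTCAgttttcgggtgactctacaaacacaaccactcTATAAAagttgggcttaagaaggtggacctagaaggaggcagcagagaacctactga
Mmp13 (chr9:7272264-7272563, plus strand): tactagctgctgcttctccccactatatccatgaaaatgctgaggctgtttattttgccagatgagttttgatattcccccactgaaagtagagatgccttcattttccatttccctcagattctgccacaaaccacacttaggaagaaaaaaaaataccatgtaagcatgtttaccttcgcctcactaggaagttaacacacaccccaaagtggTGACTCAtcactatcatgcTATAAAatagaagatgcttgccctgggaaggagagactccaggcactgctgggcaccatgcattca

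TATAAA stood in 9 of the 12 promoters of the chromosome 9 genes (75%), in 1 of the 17 promoters matched to 16 of the 26 members reaching 10 FPKM (5.9%) and in 13.6% of all 32851 promoters in the table. TGANTCA stood in 8 of the 12 (66.7%), in 0 of the 17 and in 7.8% of all. The GC box went the other way: 0 of the 12, 14 of the 17 (82.4%) and 35.7% of all. It was not missing from all low members: Adamts13, Adamtsl2, Adamtsl3 and Mmp24, which lie elsewhere and stayed under 1 FPKM in every fraction, held it, 4 of the 16 promoters at that level (25%), at 54.7% to 80% GC. The median GC content was 41.7% in the 12, 66.0% in the 17 and 52.7% in all promoters. The Mmp3 match to TGANTCA began 46 bases before the annotated start and the Mmp13 match 35 bases before it. Each was followed by a TATAAA, which began 7 bases before that start in Mmp3 and 16 bases before it in Mmp13. Of the 6 members highest in DC by the test described below, Adamts12, Adamts18, Adamts20 and Mmp25 had an entry, and 3 of these 4 promoters held a GC box and 0 a TATAAA or a TGANTCA. A match is a run of letters and not a measured binding site. The 12 promoters come from 10 neighbouring genes of the same family, so they are not independent of each other. Mmp12 and Mmp7 each gave more than a single promoter, and those of Mmp7 overlap.

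The most abundant members were Mmp2, Mmp14, Adamts12, Timp3, Timp2, Adamts20, Mmp16 and Adamts1, and more members reached 10 FPKM in each of the dermal and nerve fractions than in the other 4. Of the 51 members, 26 reached a mean of 10 FPKM in at least 1 fraction, 10 had their highest mean between 1 and 10, and 15 stayed under 1 in every fraction. Mmp2, Mmp14 and Timp3, and no other member, reached 10 FPKM in all 8 fractions. Members reaching 10 FPKM numbered 18 in Fb, 16 in DC, 14 in Sch, 13 in DCSch, 7 in Neg, 6 in Mc, 6 in Pc and 5 in Epi. At 1 FPKM the order changed, with 32 in Fb, 30 in DCSch, 28 in DC, 27 in Neg, 25 in Sch, 24 in Mc, 18 in Pc and 16 in Epi. Among the 35 tested members, the highest mean stood in Fb for 13, in DC for 12, in Sch for 7, in Pc for 2 and in Neg for 1. Over all tested rows the shares were 13.5% for Fb, 18.6% for DC, 12.7% for Sch, 12.4% for Pc and 13.5% for Neg. They were 14.3% for Epi, 12.3% for Mc and 2.7% for DCSch, where 0 members had their highest mean. Epi held the lowest mean for 17 of the 35. The share of all rows lowest in a fraction, or reaching 10 FPKM in it, was not computed. At 1 FPKM, single libraries held from 11273 (Pc replicate 2) to 12137 (Neg replicate 2) of all rows.

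**Figure D1:**
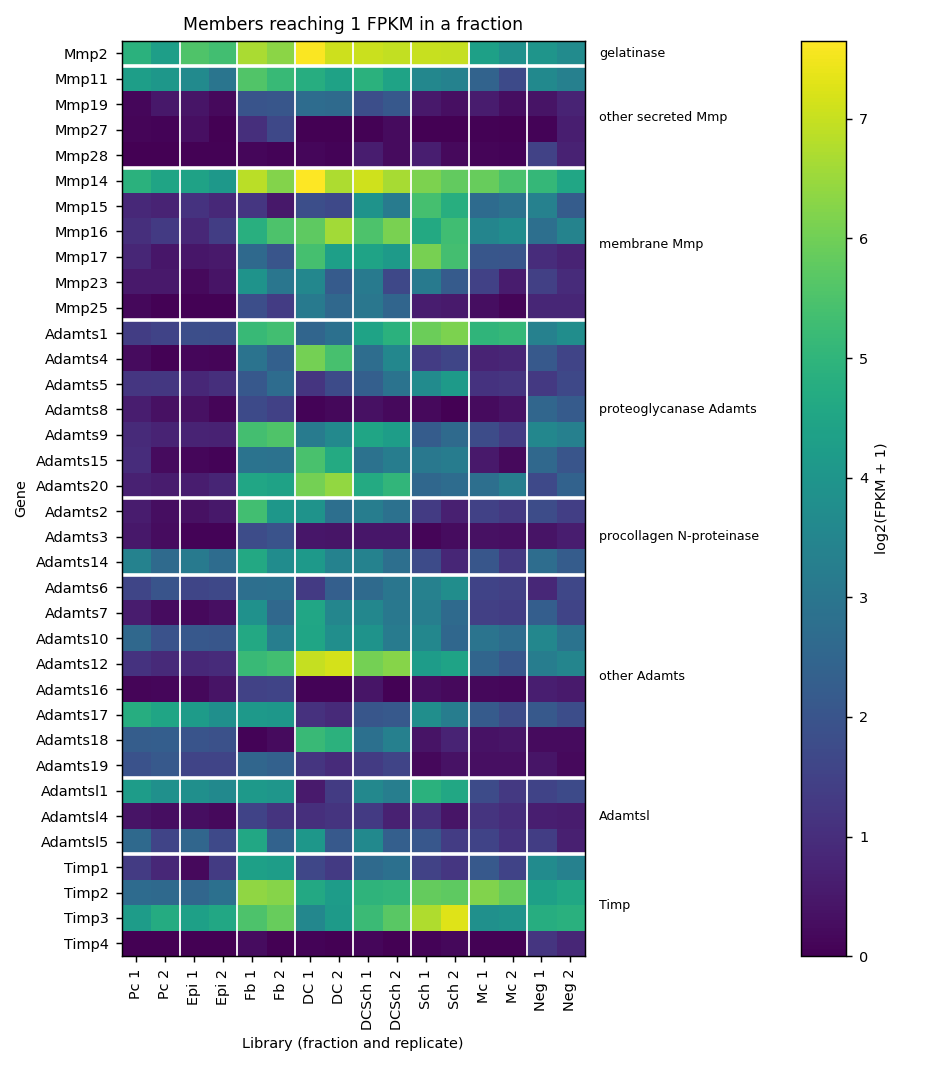
Expression of the members that reached a mean of 1 FPKM in a fraction, 1 row per gene grouped by role and 1 column per library; colour is log2(FPKM + 1). Mmp2 and Mmp14 are bright in every column, and the bright block of Adamts and membrane Mmp genes lies in the Fb, DC, DCSch and Sch columns.

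Differences between fractions were tested with limma on log2(FPKM + 1) over all 14171 rows that reached 1 FPKM in at least 2 libraries. A row was called at a Benjamini-Hochberg adjusted p under 0.05 with a log2 difference of at least 1 in either direction. Adamts3, Adamts16 and Mmp27 passed the filter only through Fb, so a lower value elsewhere was built into their testing, and the counts of members are descriptions. Between DC and Fb, 19 of the 35 tested members were called, 7 higher in DC and 12 lower, where 15.3% of all rows were called (6.13% higher, 9.20% lower). Between Mc and Sch, 13 were called and all 13 were lower in Mc, against 11.8% of all rows (4.53% higher, 7.31% lower). Between Epi and Fb, 28 were called, 1 higher and 27 lower in Epi, against 24.5% of all rows (1483 rows higher, 1987 lower). Between Sch and Fb, 18 were called, 4 higher and 14 lower in Sch, against 15.4% of all rows (6.72% higher, 8.68% lower). Between Neg and Fb, 21 were called, 1 higher and 20 lower in Neg, against 15.5% of all rows (7.77% higher, 7.71% lower). Between Pc and Epi, 0 of 35 were called, against 1.52% of all rows (0.155% higher, 1.37% lower). The 4 comparisons with Fb share its libraries.

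Membrane-type Mmp genes were led by Mmp14, whose protein cuts fibrillar collagen at the cell surface and activates pro-Mmp2. Mmp14 (chr14:54431604-54441258) measured 200.3 and 104 FPKM in DC, 136 and 100.2 in DCSch, 115 and 73.99 in Fb, and 70.4 and 55.4 in Sch. Lower values followed, 58.1 and 42.7 FPKM in Mc, 33.6 and 22.3 in Neg, 28.6 and 21.1 in Pc, and 20.3 and 15.8 in Epi. Neighbouring fractions in this order overlapped at DC with DCSch, DCSch with Fb, Sch with Mc and Neg with Pc. The DC minus Fb difference was 0.64 on the log2 scale (SE 0.35) and was not called (limma adjusted p = 0.259). With the replicate number as a block its adjusted p was 0.00276, with the difference still under the size required. Mmp14 was 18.4% to 56.2% of the summed FPKM of all 23 Mmp genes in a library.

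Mmp16 (chr4:17853482-18118734), another transmembrane collagen-cutting protease, was a gene of the dermal and nerve fractions: 53.00 and 95.3 FPKM in DC, 44.7 and 68.9 in DCSch, 27.5 and 44.9 in Fb, and 24.2 and 38.6 in Sch. Outside them it measured 10.2 and 12.3 FPKM in Mc, 5.98 and 9.65 in Neg, 1.06 and 1.46 in Pc, and 0.822 and 1.64 in Epi. The DC, DCSch, Fb and Sch ranges overlapped one with the next, and the Pc and Epi libraries were the lowest. Against Fb, DC differed by 0.996 (SE 0.38) with a limma adjusted p of 0.0907. The replicate block brought that adjusted p to 0.000249, with the difference just under the size required. Mc minus Sch was -1.37 (SE 0.38, limma adjusted p = 0.0293). The Mc call was lost on leaving out Sch replicate 2 (adjusted p = 0.233), Mc replicate 1 (0.158) or Mc replicate 2 (0.0913).

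Mmp17 and Mmp25 encode the members anchored to the membrane by a lipid tail, and both were higher in DC than in Fb while they differed in Sch. Mmp17 (chr5:129584214-129608211) measured 66.2 and 40.3 FPKM in Sch, 41.4 and 19.1 in DC, 20.7 and 16.9 in DCSch, and 5.08 and 3.09 in Fb. Elsewhere it stood at 3.13 and 3.01 FPKM in Mc, 0.976 and 0.701 in Neg, 0.766 and 0.374 in Pc, and 0.371 and 0.428 in Epi. Sch, DC and DCSch overlapped, and all 6 of their libraries were above both Fb libraries. In DC the log2 difference from Fb was 2.55 (SE 0.35; limma adjusted p = 0.000258), Sch minus Fb 3.40 (SE 0.35; 2.20e-05) and Mc minus Sch -3.70 (SE 0.35; 1.46e-05), the lowest Mc difference of any tested member. Mmp25 (chr17:23629458-23645269) was a lower signal, 7.84 and 4.95 FPKM in DC, 7.19 and 4.60 in DCSch, and 2.58 and 1.58 in Fb. Its other libraries lay at 0.755 and 0.763 FPKM in Neg, 0.531 and 0.461 in Sch, 0.217 and 0.0860 in Mc, 0.118 and 0.0215 in Pc, and 0.0385 and 0.0355 in Epi. Sch minus Fb was -1.02 (SE 0.24; limma adjusted p = 0.00980). DC overlapped DCSch and stood above Fb, by 1.25 (SE 0.24; limma adjusted p = 0.00282). Without DC replicate 1 the difference was 0.97 (0.0299), under the size required, and with only the DC and Fb libraries in the model the adjusted p was 0.134.

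Mmp15, also a transmembrane type, had another order of fractions than Mmp16. Mmp15 (chr8:95352337-95374293) measured 40.8 and 26.6 FPKM in Sch, 14.4 and 8.15 in DCSch, 9.31 and 3.70 in Neg, and 5.39 and 6.41 in Mc. The remaining fractions gave 2.55 and 2.23 FPKM in DC, 1.18 and 0.841 in Epi, 1.32 and 0.399 in Fb, and 0.827 and 0.702 in Pc. Both Sch libraries were above every other library, and Fb, Epi and Pc overlapped at the bottom. Sch minus Fb was 4.24 (SE 0.39; limma adjusted p = 8.97e-06), Mc minus Sch -2.30 (SE 0.39; 0.00137) and Neg minus Fb 1.95 (SE 0.39; 0.00333). The Neg call was lost with only the Neg and Fb libraries in the model (adjusted p = 0.0818).

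Mmp23 (chr4:155650655-155653384), a small membrane protease without the usual haemopexin domain, measured 14.3 and 7.06 FPKM in Fb, 10.7 and 3.60 in DC, 7.73 and 3.58 in Sch, and 7.82 and 2.15 in DCSch. It was lower in the rest, 1.76 and 0.940 FPKM in Neg, 1.78 and 0.509 in Mc, 0.423 and 0.446 in Pc, and 0.156 and 0.322 in Epi. Replicate 1 was above replicate 2 in every one of the first 6 of these fractions, and Fb, DC, Sch and DCSch overlapped. Mc minus Sch was -1.63 (SE 0.57) and not called (limma adjusted p = 0.0842), but was called with the replicate number as a block (0.00471). The seventh membrane type, Mmp24, known from the nervous system, stayed at or below 0.169 FPKM in every library.

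Mmp2 is the gelatinase that degrades denatured collagen and the type IV collagen of basement membranes. Among the secreted Mmp and Adamts members it had the highest mean in DC and in Fb. Mmp2 (chr8:92827328-92853420) measured 194 and 133 FPKM in DC, 128 and 126 in Sch, 132 and 122 in DCSch, and 101 and 78.6 in Fb. It was lower at 46.2 and 39.7 FPKM in Epi, 28.7 and 18.6 in Pc, 19.4 and 13.6 in Mc, and 14.8 and 11.8 in Neg. Sch and DCSch overlapped, and no Mc or Neg library reached 20 FPKM. Mc minus Sch was -2.89 (SE 0.26; limma adjusted p = 9.74e-06). The difference of DC from Fb was 0.84 (SE 0.26), past the p threshold (0.0409) but under the size required. The replicate block brought its limma adjusted p to 0.000491. Mmp2 and Mmp14 together made up 55.4% to 84.1% of the summed FPKM of all Mmp genes in a library. The other gelatinase, Mmp9, did not pass 1.28 FPKM in any library; its 2 highest were the first replicates of Fb and Pc, at 1.28 and 1.27 FPKM.

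Mmp11, a secreted protease that furin activates inside the cell, was highest in fibroblasts and present in the epidermal fractions. Mmp11 (chr10:75923224-75932463) measured 46.9 and 34.6 FPKM in Fb, 28.3 and 20.6 in DCSch, 26.3 and 20.2 in DC, and 18.4 and 15.6 in Pc. The others gave 11.4 and 9.14 FPKM in Neg, 10.7 and 9.60 in Sch, 11.5 and 6.86 in Epi, and 4.46 and 2.27 in Mc. Both Fb libraries were above every other library. Epi minus Fb was -2.06 (SE 0.31; limma adjusted p = 0.000240) and Mc minus Sch -1.40 (SE 0.31; 0.00818). The Mc call was lost without Sch replicate 1 (adjusted p = 0.0540) or Mc replicate 2 (0.101).

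The remaining secreted Mmp genes were near the bottom of the table. Mmp19, a basement membrane protease, reached 5.50 and 5.29 FPKM in DC and 2.95 and 3.10 in Fb, a log2 difference of 0.67 (SE 0.21) that was under the size required. Mmp27 was read at 1.05 and 2.17 FPKM in Fb and listed at 0 in all 4 DC and Sch libraries, and Mmp28, known from keratinocytes, at 1.87 and 0.670 in Neg. The 4 collagenases Mmp1a, Mmp1b, Mmp8 and Mmp13 summed to at most 0.486 FPKM in a library, reached by Mmp8 in Pc replicate 2. Mmp1a and Mmp1b are close copies, so reads of one could count for the other. Mmp3 reached 0.913 FPKM in Fb replicate 1 and 0.0787 in Fb replicate 2. Mmp20, an enamel protease, and Mmp21 stayed at or under 0.0744 and were listed at 0 in most libraries.

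Adamts genes that cut versican and aggrecan, the large proteoglycans that bind hyaluronan, were divided between condensate, fibroblast and Schwann fractions. Adamts4 (chr1:171250422-171259922) measured 64.8 and 42.2 FPKM in DC, 5.68 and 10.6 in DCSch, 6.61 and 4.04 in Fb, and 3.36 and 1.96 in Neg. It was lower at 1.55 and 2.02 FPKM in Sch, 0.709 and 0.763 in Mc, 0.179 and 0.0393 in Pc, and 0.106 and 0.0648 in Epi. Both DC libraries were above every other library. DC minus Fb was 3.11 (SE 0.32; limma adjusted p = 3.19e-05).

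Adamts15 (chr9:30899155-30922452) had the same peak: 42.5 and 24.7 FPKM in DC, 7.33 and 8.23 in Sch, 6.46 and 8.42 in DCSch, and 6.60 and 6.34 in Fb. The others were 5.02 and 3.05 FPKM in Neg, 0.974 and 0.178 in Pc, 0.428 and 0.149 in Mc, and 0.0905 and 0.0588 in Epi. The DC libraries differed from each other by more than the 6 Sch, DCSch and Fb libraries did among themselves, yet both were above all 14 others. The DC minus Fb difference was 2.16 (SE 0.32; limma adjusted p = 0.000413) and Mc minus Sch -2.77 (SE 0.32; 6.59e-05). Its neighbour Adamts8 starts 20.1 kb away on the other strand with no coding gene between. Adamts8 had another pattern, highest in Neg at 4.78 and 3.56 FPKM and next in Fb at 2.31 and 1.79, against 0.0511 and 0.114 in DC. DC minus Fb for Adamts8 was -1.49 (SE 0.18; limma adjusted p = 0.000103).

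Adamts20, known from the belted mouse, whose pigment cells fail to populate part of the trunk, was also a dermal gene here. Adamts20 (chr15:94270163-94404350) measured 64.8 and 84.4 FPKM in DC, 24.7 and 31.6 in DCSch, 21.9 and 20.2 in Fb, and 5.88 and 8.69 in Mc. It stood lower at 4.91 and 5.51 FPKM in Sch, 2.20 and 4.29 in Neg, 0.540 and 0.732 in Epi, and 0.614 and 0.490 in Pc. No library of DC overlapped DCSch, and DCSch was above Fb. The melanocyte fraction was far below the dermal ones. Against Fb, DC differed by 1.76 (SE 0.27; limma adjusted p = 0.000568), while Mc minus Sch was 0.40 (SE 0.27; 0.433).

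Adamts9, the closest relative of Adamts20, was arranged the other way round. Adamts9 (chr6:92772699-92901441) measured 40.7 and 45.8 FPKM in Fb, 21.6 and 18.2 in DCSch, 10.6 and 9.005 in Neg, and 8.14 and 11.2 in DC. It was low in 3.67 and 5.23 FPKM in Sch, 2.43 and 1.55 in Mc, 0.882 and 0.701 in Pc, and 0.692 and 0.645 in Epi. Both Fb libraries were above all others. In DC the log2 difference from Fb was -2.06 (SE 0.24; limma adjusted p = 6.95e-05), and Epi minus Fb -4.73 (SE 0.24; 1.11e-07) was the largest drop of any tested member in that comparison.

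Adamts1 and Adamts5 lie 55.0 kb apart on chromosome 16, on the same strand with no coding gene between, and both were highest in Sch. Adamts1 (chr16:85793828-85803115) measured 60.6 and 69.6 FPKM in Sch, 34.8 and 39.7 in Fb, 31.02 and 33.4 in Mc, and 20.5 and 28.4 in DCSch. It was lower at 9.30 and 12.4 FPKM in Neg, 4.65 and 6.11 in DC, 2.61 and 2.53 in Epi, and 1.63 and 1.88 in Pc. None of these fractions overlapped its neighbour in the order. The difference of DC from Fb was -2.59 (SE 0.22; limma adjusted p = 6.86e-06). Adamts5 (chr16:85858157-85901125), an aggrecanase, measured 11.97 and 17.02 FPKM in Sch, 4.03 and 6.49 in DCSch, 3.35 and 5.59 in Fb, and 1.29 and 2.35 in DC. The rest stood at 1.43 and 2.15 FPKM in Neg, 1.30 and 1.37 in Pc, 1.20 and 1.24 in Mc, and 0.814 and 1.06 in Epi. Both Sch libraries were above all others. Sch minus Fb was 1.51 (SE 0.30; limma adjusted p = 0.00273) and Mc minus Sch -2.78 (SE 0.30; 3.58e-05). With only the Sch and Fb libraries in the model the first had an adjusted p of 0.0605.

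The procollagen N-proteinases Adamts2, Adamts3 and Adamts14 trim the amino end of fibrillar procollagens, and all had their highest mean in Fb. Adamts2 (chr11:50602085-50804049) measured 39.7 and 15.6 FPKM in Fb, 14.2 and 6.01 in DC, 8.40 and 6.25 in DCSch, and 2.45 and 1.66 in Neg. It was lower in 1.76 and 1.42 FPKM in Mc, 1.53 and 0.578 in Sch, 0.497 and 0.212 in Pc, and 0.268 and 0.397 in Epi. The replicates of Fb and of DC were far apart, with replicate 1 higher in both, although Fb did not overlap DC. Sch minus Fb was -3.70 (SE 0.44; limma adjusted p = 6.40e-05). DC minus Fb was -1.33 (SE 0.44) and missed the threshold (0.0517), and was called with the replicate number as a block (0.00398).

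Adamts14 (chr10:61197112-61273438) measured 23.4 and 12.1 FPKM in Fb, 16.3 and 9.56 in DC, 9.43 and 5.96 in DCSch, and 9.49 and 5.21 in Pc. The lower fractions were 7.98 and 5.52 FPKM in Epi, 5.60 and 3.64 in Neg, 3.17 and 1.39 in Mc, and 2.37 and 0.761 in Sch. It was the only N-proteinase above 1 FPKM in the epidermal fractions, and Fb and DC overlapped. Epi minus Fb was -1.23 (SE 0.46) with a limma adjusted p of 0.0612, and was called with the replicate number as a block (4.64e-05). Sch minus Fb was -2.88 (SE 0.46; 0.000618). Neg minus Fb, -1.69 (SE 0.46; 0.0203), was lost without Fb replicate 1 (0.153), without Neg replicate 2 (0.127) and with only those libraries in the model (0.0778). Adamts3, which also processes a lymphatic growth factor, was read at 2.45 and 2.90 FPKM in Fb and at most 0.545 elsewhere.

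Adamts12 was the most abundant Adamts gene of the table. Its protein and that of Adamts7 share a mucin-like stretch and cut cartilage oligomeric matrix protein. Adamts12 (chr15:11064790-11346867) measured 126 and 143 FPKM in DC, 65.6 and 76.4 in DCSch, 35.6 and 39.3 in Fb, and 17.7 and 20.6 in Sch. It was lower at 8.38 and 10.1 FPKM in Neg, 4.61 and 3.24 in Mc, 1.15 and 0.892 in Pc, and 0.852 and 0.931 in Epi. The fractions did not overlap their neighbours in this order except Pc and Epi. The DC minus Fb difference was 1.81 (SE 0.20; limma adjusted p = 5.03e-05), Mc minus Sch -2.04 (SE 0.20; 1.91e-05) and Epi minus Fb -4.34 (SE 0.20; 7.63e-08).

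Adamts7 (chr9:90162978-90200102) measured 22.2 and 10.3 FPKM in DC, 13.7 and 5.01 in Fb, 10.7 and 7.31 in DCSch, and 8.62 and 5.31 in Sch. Elsewhere the values were 3.93 and 1.94 FPKM in Neg, 1.71 and 1.62 in Mc, 0.497 and 0.185 in Pc, and 0.136 and 0.240 in Epi. DC, Fb, DCSch and Sch overlapped in turn. Against Fb, DC differed by 0.78 (SE 0.45; limma adjusted p = 0.285). Mc minus Sch was -1.55 (SE 0.45; 0.0384), and the call was lost on leaving out any 1 of the 4 libraries (adjusted p from 0.0635 to 0.210) and with no filter on low values (0.0571). Neg minus Fb was -1.30 (SE 0.45; 0.0641), called with the replicate number as a block (0.00431).

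Adamts18, whose promoter is printed above, had the largest difference between condensate and fibroblasts of the tested members. Adamts18 (chr8:113698137-113848839) measured 35.7 and 29.3 FPKM in DC, 6.05 and 9.09 in DCSch, 3.77 and 3.93 in Pc, and 2.94 and 2.76 in Epi. It was under 1 FPKM in 0.323 and 0.690 FPKM in Sch, 0.296 and 0.343 in Mc, 0.163 and 0.173 in Neg, and 0.0552 and 0.161 in Fb. Both DC libraries were above all others, and the placode and epidermal libraries were above the Sch, Mc, Neg and Fb libraries. In DC the log2 difference from Fb was 4.91 (SE 0.22; limma adjusted p = 1.48e-07), and Epi minus Fb was 1.80 (SE 0.22; 4.95e-05), the 1 member called higher in Epi. Adamts16, its closest relative, was read at 1.86 and 1.99 FPKM in Fb and at most 0.561 elsewhere.

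Adamts17, a gene whose loss causes a short-stature syndrome with displaced lenses, was the main Adamts gene of the epidermal fractions. Adamts17 (chr7:66839735-67152625) measured 26.3 and 21.8 FPKM in Pc, 16.6 and 15.7 in Fb, 17.4 and 12.99 in Epi, and 12.9 and 8.57 in Sch. The others were 3.16 and 3.42 FPKM in DCSch, 3.55 and 2.44 in Mc, 3.39 and 2.53 in Neg, and 1.12 and 0.873 in DC. Fb overlapped Epi, and the DC libraries were the lowest of all 16 for this gene. The difference of DC from Fb was -3.10 (SE 0.25; limma adjusted p = 5.28e-06) and Mc minus Sch -1.54 (SE 0.25; 0.00100). Pc minus Epi was 0.63 (SE 0.25; 0.416), with both Pc libraries above both Epi libraries.

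Adamts19, the relative of Adamts17, was lower and measured 4.77 and 4.18 FPKM in Fb, 2.79 and 3.42 in Pc, 1.97 and 1.99 in Epi, and 1.50 and 1.95 in DCSch. The others gave 1.29 and 0.922 FPKM in DC, 0.339 and 0.155 in Neg, 0.244 and 0.235 in Mc, and 0.114 and 0.294 in Sch. DC minus Fb was -1.38 (SE 0.18; limma adjusted p = 0.000192), and with only the DC and Fb libraries in the model its adjusted p was 0.0605. Fb stood above Pc and Pc above Epi without overlap.

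Adamts6 and Adamts10 act on or beside fibrillin microfibrils. Adamts10 (chr17:33524196-33553782) measured 21.8 and 12.8 FPKM in DC, 23.6 and 8.71 in Fb, 14.2 and 8.02 in DCSch, and 10.7 and 6.58 in Neg. The rest were 10.6 and 4.93 FPKM in Sch, 6.70 and 5.58 in Mc, 4.97 and 2.81 in Pc, and 3.27 and 3.15 in Epi. Its fractions overlapped from DC down to Mc. Adamts6 (chr13:104287873-104494763) measured 9.24 and 12.6 FPKM in Sch, 5.31 and 7.01 in DCSch, 5.98 and 6.04 in Fb, and 1.47 and 3.94 in DC. The others stood at 2.02 and 2.95 FPKM in Pc, 2.04 and 2.14 in Epi, 1.94 and 1.73 in Mc, and 0.790 and 2.12 in Neg. Both Sch libraries were above all others. Mc minus Sch was -2.06 (SE 0.35; limma adjusted p = 0.00125). The DC minus Fb difference was -1.01 (SE 0.35; 0.0614) and was called with the replicate number as a block (0.00832). Epi minus Fb was -1.18 (SE 0.35; 0.0198) and was lost on leaving out any 1 of the 4 libraries (0.0659 to 0.0910). Neg minus Fb was -1.57 (SE 0.35; 0.00596) and was lost without Neg replicate 1 (0.0709) or with only those libraries in the model (0.0683). Adamts13, the protease of von Willebrand factor, reached 0.0141 FPKM in 1 library and was listed at 0 in the other 15.

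Adamtsl1, a protease-like matrix protein without catalytic domain, was shared by Schwann, fibroblast and epidermal fractions and low in the condensate. Adamtsl1 (chr4:86053915-86428382) measured 28.7 and 23.1 FPKM in Sch, 16.7 and 15.1 in Fb, 17.7 and 13.5 in Pc, and 12.9 and 11.4 in Epi. It was lower in 10.97 and 8.73 FPKM in DCSch, 1.92 and 2.30 in Neg, 2.33 and 1.41 in Mc, and 0.463 and 1.50 in DC. Against Fb, DC differed by -3.14 (SE 0.28; limma adjusted p = 1.05e-05), the largest drop of any tested member in that comparison, and Mc minus Sch was -3.24 (SE 0.28; 6.75e-06). Adamtsl5 measured 22.9 and 4.25 FPKM in Fb, 15.6 and 3.43 in DC, 11.5 and 3.94 in DCSch, and 5.15 and 1.98 in Pc. It went on to 4.81 and 2.22 FPKM in Epi, 3.21 and 1.58 in Sch, 1.93 and 1.16 in Mc, and 1.63 and 0.599 in Neg. Replicate 1 was above replicate 2 in all 8 fractions, most of all in Fb and DC, and all neighbouring fractions overlapped. The row's locus in the file is 72.3 times the length of the gene and covers 45 other coding genes. Epi minus Fb was -1.37 (SE 0.78; limma adjusted p = 0.212) and Sch minus Fb -1.77 (SE 0.78; 0.156), both called with the replicate number as a block (0.00830 and 0.00268). Neg minus Fb was -2.45 (SE 0.78; 0.0441) and was lost without Fb replicate 1 (0.304), Neg replicate 1 (0.0881) or Neg replicate 2 (0.201), with no filter (0.0642) and with only those libraries (0.135). Adamtsl4, which binds fibrillin, peaked at 1.90 and 1.23 FPKM in Fb, and Adamtsl2 and Adamtsl3 stayed below 1 FPKM.

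The inhibitors Timp1, Timp2 and Timp3 were all lower in the condensate than in fibroblasts, and their highest mean was in Fb for Timp1 and Timp2 and in Sch for Timp3. Timp2, which both blocks Mmp2 and helps Mmp14 activate it, measured 82.2 and 75.6 FPKM in Fb, 72.2 and 57.7 in Mc, 56.96 and 53.5 in Sch, and 30.8 and 31.8 in DCSch. It was lower in 19.4 and 22.7 FPKM in Neg, 23.7 and 17.9 in DC, 4.72 and 6.10 in Epi, and 5.38 and 5.09 in Pc. Only Neg with DC and Epi with Pc overlapped. DC minus Fb for Timp2 (chr11:118301061-118355411) was -1.89 (SE 0.20; limma adjusted p = 3.19e-05), and Mc minus Sch was 0.22 (SE 0.20; 0.570).

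Timp3, which binds the matrix and is the strongest Timp against Adamts4 and Adamts5, measured 105 and 155 FPKM in Sch, 44.5 and 58.1 in Fb, 36.5 and 50.5 in DCSch, and 26.2 and 27.8 in Neg. The others were 17.7 and 25.1 FPKM in Pc, 19.6 and 22.9 in Epi, 10.7 and 17.1 in DC, and 13.3 and 14.3 in Mc. Both Sch libraries were above all others, and Fb overlapped DCSch, Pc overlapped Epi and DC overlapped Mc. In DC the log2 difference from Fb was -1.83 (SE 0.28; limma adjusted p = 0.000520) and Mc minus Sch -3.13 (SE 0.28; 8.74e-06). Sch minus Fb was 1.31 (SE 0.28; 0.00478), lost without Sch replicate 2 (0.0612) and with only those libraries in the model (0.0569).

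Timp1, a soluble inhibitor that is weak against membrane Mmp proteins, measured 19.6 and 18.4 FPKM in Fb, 11.8 and 9.34 in Neg, 5.23 and 6.02 in DCSch, and 3.42 and 1.90 in Mc. It was lower in 2.09 and 1.45 FPKM in DC, 1.87 and 1.30 in Sch, 1.49 and 0.808 in Pc, and 0.144 and 1.50 in Epi. Both Fb libraries were above all others, and Mc, DC, Sch and Pc overlapped. The difference of DC from Fb was -2.86 (SE 0.35; limma adjusted p = 0.000112) and Sch minus Fb -2.96 (SE 0.35; 6.52e-05). Timp4 reached 1.27 and 0.764 FPKM in Neg and at most 0.188 elsewhere. The loci of Timp1, Timp3 and Timp4 in the file take in the synapsin genes in which they lie: 15.8 times the gene's length with Syn1 and Araf for Timp1, 9.16 times with Syn3 and Fbxo7 for Timp3 and 14.3 times with Syn2 for Timp4. The Syn1 row was at most 1.21 FPKM and the Syn3 row at most 6.00, below Timp3 in every library. The Syn2 row stood at 1.40 and 1.15 FPKM in Neg, near the Timp4 values there.

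**Figure D2:**
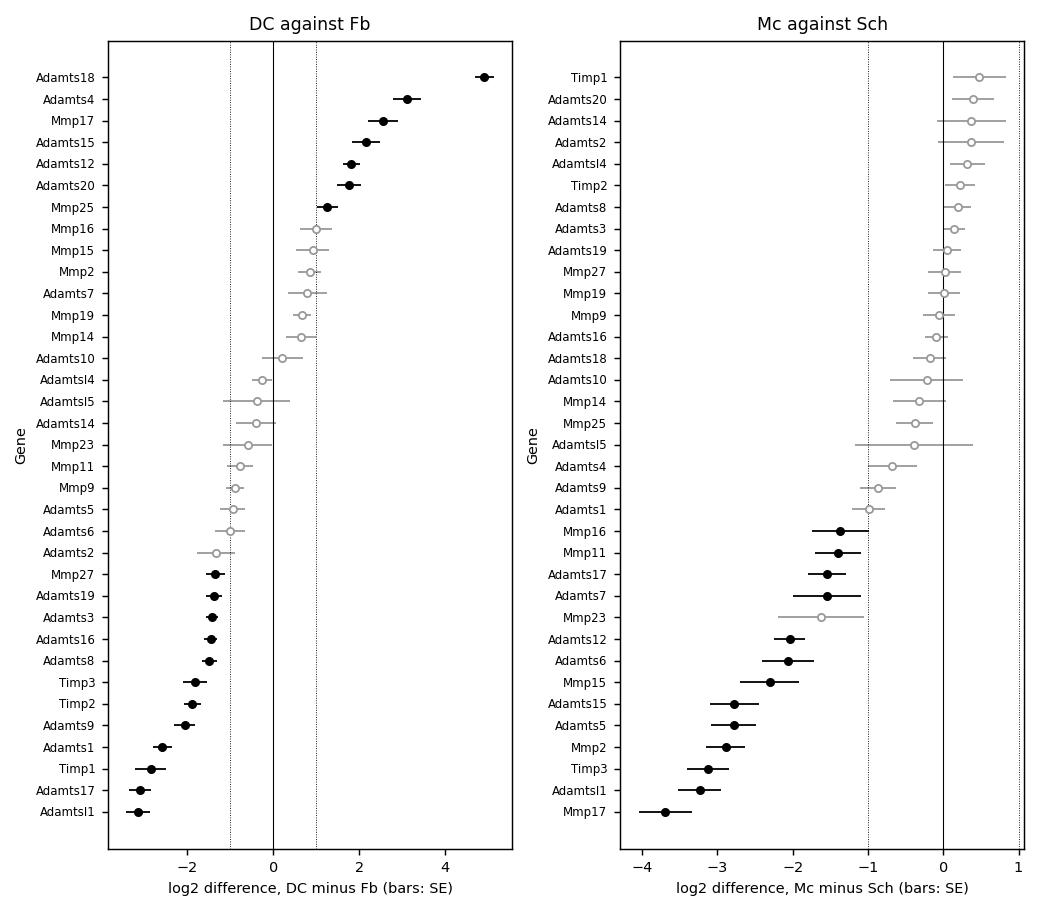
Log2 differences of the 35 tested members for DC minus Fb (left) and Mc minus Sch (right), with bars of 1 standard error; filled points were called, open points were not, and dotted lines mark a log2 difference of 1. DC minus Fb runs from -3.14 (Adamtsl1) to 4.91 (Adamts18), and Mc minus Sch from -3.70 (Mmp17) to 0.48 (Timp1).

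Between condensate and fibroblasts members differed in both directions. Higher in DC were Adamts4, Adamts12, Adamts15, Adamts18, Adamts20, Mmp17 and Mmp25. Lower in DC were Adamts1, Adamts3, Adamts8, Adamts9, Adamts16, Adamts17, Adamts19, Adamtsl1, Mmp27, Timp1, Timp2 and Timp3. Of these, Adamts3, Adamts16 and Mmp27 passed the filter only through Fb. By role, 3 of 7 tested proteoglycan-cutting Adamts genes were higher and 3 lower, 2 of 6 membrane Mmp genes were higher, and 3 of 3 tested Timp genes were lower, where 6.13% of all rows were higher and 9.20% lower; a role holds too few genes to be weighed against these shares alone. The median log2 difference of the 35 was -0.60, and that of all rows was 0.00 to 2 decimals (-0.00326). Of the 19 calls, 17 were kept under every alternative model, where only DC and Fb libraries were left out in turn. The 2 lost in some were Adamts19 and Mmp25.

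Between placode and epidermis, 0 of the 35 tested members were called by limma and 5 had an unadjusted p under 0.05. At that unadjusted level the share of all rows was not computed, so the 5 are only described. With 1.52% of all rows called, a count of 0 among 35 is near the share over all rows and is not a result about the members. Of the 5, Mmp9, Mmp11, Adamts17 and Adamts19 had a higher mean and Mmp2 a lower mean in Pc, without a call. Mmp9 was near the floor, at 1.27 and 0.628 FPKM in Pc against 0.353 and 0.0766 in Epi. It reached 1 FPKM only in Pc replicate 1 and Fb replicate 1, so a lower value in Epi was partly built into its testing. The smallest adjusted p was 0.189, for Mmp2, with a difference of -0.86 (SE 0.26), 28.7 and 18.6 FPKM in Pc against 46.2 and 39.7 in Epi. Mmp11 stood at 18.4 and 15.6 in Pc against 11.5 and 6.86 in Epi, a difference of 0.85 (SE 0.31; adjusted p = 0.335). Differences ran from -0.86 to 0.85. The alternatives also gave 0 calls, although the block brought the adjusted p of Mmp2 to 0.00337, that of Mmp11 to 0.00616 and that of Adamts17 to 0.0467, all under the size required.

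Melanocytes had lower levels of 13 members than Schwann cells, the other neural crest derivative sorted. These were Adamts5, Adamts6, Adamts7, Adamts12, Adamts15, Adamts17, Adamtsl1, Mmp2, Mmp11, Mmp15, Mmp16, Mmp17 and Timp3, and 10 of them were kept under every alternative. Timp2, Mmp14 and Adamts1 were the most abundant members in Mc, and none of the 3 was called. Adamts1 was lower in Mc by 0.99 (SE 0.22; limma adjusted p = 0.00798), just under the size required. The median difference of the 35 was -0.39, and that of all rows was -0.01. Epidermis markers summed to 189 and 30.5 FPKM in Sch against the 577 and 412 given for Mc, and Cdh1 alone was 11.3 and 2.29 FPKM in Sch.

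Against fibroblasts, the epidermis was lower in 9 of 11 tested Mmp genes, 14 of 18 Adamts genes and 3 of 3 Timp genes, where 1987 of the 14171 rows were lower. The exceptions that were not called were Mmp9, Mmp15, Adamts14, Adamts17, Adamts19, Adamtsl1 and Adamtsl5. The median difference was -1.69 for the members and 0.00 for all rows. For Epi minus Fb, 23 of 28 calls were kept under every alternative. In Sch the 4 genes higher than in Fb were Mmp15, Mmp17, Adamts5 and Timp3, and the N-proteinases were lower in 3 of 3, where 6.72% of all rows were higher and 8.68% lower. Adamts3, Adamts16 and Mmp27, counted among the lower genes for Epi and for Sch, passed the filter only through Fb. Of the 18 Sch calls 14 were kept throughout, and of the 21 Neg calls 15. The median difference of the members was -0.81 for Sch and -1.44 for Neg, each against Fb. Rescaling all libraries to the same FPKM total moved the median of all rows to -0.20 for Epi, 0.12 for Sch and -0.20 for Neg against Fb and to -0.15 for Mc minus Sch. On that scale the called rows split into 1124 higher and 2433 lower for Epi (1483 and 1987 as deposited) and 891 and 1493 for Neg (1101 and 1092 as deposited), while the members split 1 and 29 for Epi and 1 and 25 for Neg.

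As a stricter test, a gene was called for a fraction if it was higher than in each of 6 others by a log2 difference of at least 1, DCSch being left aside because its name joins DC and Sch. The condensate was marked by 6 members, where 2.44% of all rows were called for DC. The smallest differences were 3.11 for Adamts4, 2.78 for Adamts18, 1.93 for Adamts15, 1.81 for Adamts12, 1.76 for Adamts20 and 1.25 for Mmp25, the nearest fraction being Fb except for Adamts18 (Pc) and Adamts15 (Sch). Fibroblasts were marked by Adamts9 (2.04), with 1.52% of all rows called for Fb. Adamts3 (1.36) was also called for Fb, but it passed the filter only through Fb, so a lower value elsewhere was built in. Adamts2 was added for Fb with the replicate number as a block (1.33; limma adjusted p = 0.0221; 0.269 without it). Schwann cells were marked by Mmp15 (2.29), Adamts5 (1.51) and Timp3 (1.31), with 1.95% of all rows called for Sch. No member was called for Pc, Epi, Mc or Neg, where 0.00706%, 0.790%, 1.16% and 3.40% of all rows were. With a pseudocount of 0.1 the count over all fractions was 7 in place of 11: Adamts15, Mmp25, Adamts5 and Timp3 were lost. Adamts4, Adamts12, Adamts18, Adamts20, Adamts3 and Adamts9 were kept under every alternative, Adamts3 with the limit of the filter just given. Each Sch call was lost on leaving out at least 1 library: Mmp15 without Neg replicate 2 (adjusted p = 0.0624), Sch replicate 1 (0.0865) or Mc replicate 1 (0.0642), and Adamts5 without Fb replicate 1 (0.174) or Sch replicate 2 (0.206). Timp3 was lost on leaving out any of 9 libraries, with an adjusted p up to 0.349 without Sch replicate 2. Mmp25 was lost without Fb replicate 2 (0.0852) or DC replicate 1 (0.0875).

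The condensate stood apart in the ratio of summed protease RNA to summed Timp RNA. Summed over the 42 Mmp and Adamts genes, FPKM was 968 and 776 in DC, 605 and 486 in Fb, 603 and 577 in DCSch and 503 and 464 in Sch. The sum was 170 and 146 in Mc, 155 and 128 in Neg, 138 and 106 in Pc and 124 and 102 in Epi. The 4 Timp genes summed to 36.5 and 36.4 in DC against 146 and 152 in Fb and 164 and 210 in Sch. DC thus had the highest protease sums with Timp sums only above those of Pc and Epi. The ratio of the sums was 26.5 and 21.3 in DC, 8.30 and 6.54 in DCSch, 4.13 and 3.19 in Fb and 3.06 and 2.20 in Sch. It was 5.64 and 3.44 in Pc, 5.06 and 3.34 in Epi, 2.63 and 2.11 in Neg and 1.91 and 1.97 in Mc. Both DC ratios were above those of all other libraries, and both Mc ratios were below them. These are ratios of RNA levels per length and say nothing of protein or activity. The sums add all genes alike, whichever proteases each Timp protein blocks.

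**Figure D3:**
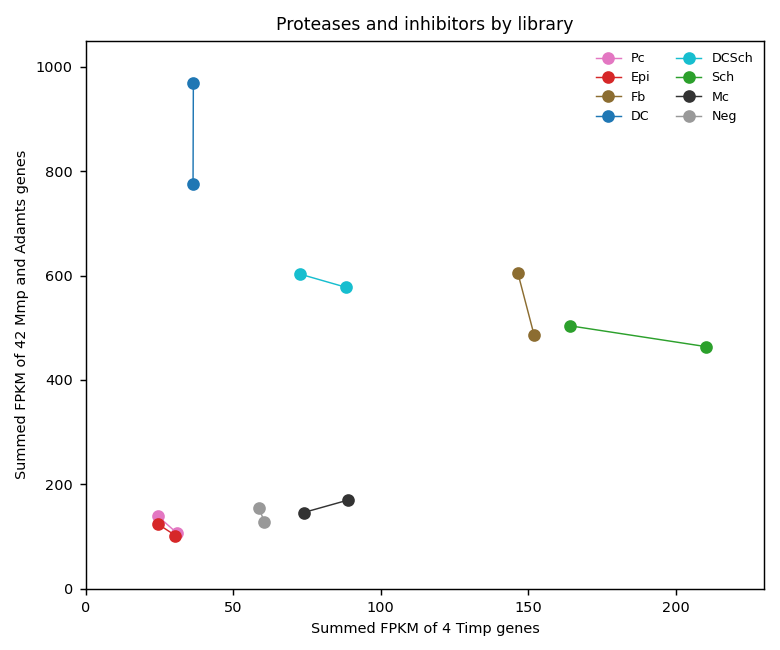
Summed FPKM of the 42 Mmp and Adamts genes (vertical axis) against that of the 4 Timp genes (horizontal axis), both linear from 0; each point is a library and a line joins the replicates of a fraction. The DC points lie highest at 968 and 776 with Timp sums of 36.5 and 36.4, and the Sch points lie farthest right at 164 and 210.

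The mean of DCSch lay between those of DC and Sch for 23 of the 35 members (65.7%), close to the 62.1% of all rows, above both for 8 and below both for 4. Condensate markers summed to 555 and 561 FPKM in DCSch and Schwann markers to 530 and 611, each between the DC and Sch sums. Adamts9 and Timp1 were among the 8 above both. Fibroblast markers summed to 2211 and 1932 FPKM in DCSch, 1954 and 1596 in DC, and 590 and 462 in Sch. Of these markers, Dpt stood at 8.58 and 5.87 FPKM in DCSch, 4.09 and 3.64 in DC, and 7.54 and 3.89 in Sch. DCSch thus overlapped DC in the sum and Sch in Dpt. Lum stood above both without overlap, at 280 and 350 FPKM in DCSch, 186 and 211 in DC, and 27.1 and 31.2 in Sch. Col1a1, Col1a2, Col3a1 and Pdgfra overlapped between DCSch and DC. The part of fibroblast markers in the DCSch values was not tested.

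Other genes of matrix turnover, taken from general lists, showed where the substrates and cofactors stood. Their counts are descriptions, to be read against the 6.13% of all rows higher and 9.20% lower in DC than in Fb. Of 7 fibrillar collagens, 4 were lower in DC than in Fb and 0 higher. Their leaders were Col1a1 (176 against 1503 FPKM; log2 difference -2.95, limma adjusted p = 0.0118) and Col1a2 (276 against 1695; -2.63, 0.000146). Pcolce, which speeds removal of the other end of procollagen, went the same way, 16.0 against 153 FPKM (-3.11; 0.000315). Of 10 basement membrane genes, 2 were higher and 3 lower in DC, with Nid1 at 279 against 112 (1.30; 0.000207), Col4a1 at 147 against 57.9 (1.31; 0.0178) and Nid2 at 14.2 against 45.6 (-1.62; 0.000596). Of 9 microfibril genes, 1 was higher and 4 lower, with Ltbp1 at 119 against 34.1 (1.79; 0.000177). Versican, Vcan, the only hyalectan tested, was not called between DC and Fb, with a difference of -0.82, and was lower in Mc than in Sch at 113 against 414 FPKM (-1.85; 0.00469).

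Among activators and inhibitors other than Timp genes, 2 of 14 were higher and 5 lower in DC than in Fb (6.13% and 9.20% of all rows). Pcsk5, a proprotein convertase, was higher at 26.6 against 4.97 FPKM (log2 difference 2.21; limma adjusted p = 3.85e-05), and its relative Pcsk6 was lower at 4.43 against 33.4 (-2.58; 0.000498). Spock1, a proteoglycan with a thyroglobulin domain, was higher at 11.4 against 0.0610 (3.55; 1.19e-06). Fap, a surface serine protease, was lower at 0.336 against 23.0 (-4.15; 4.42e-06), and Fap was also lower in Pc than in Epi (1.47 against 10.4; -2.15; 0.00559). Reck, a membrane-bound inhibitor of Mmp2, Mmp9 and Mmp14, was lower in DC at 47.4 against 105 (-1.13; 0.00255) and in Mc at 11.2 against 49.0 in Sch (-2.03; 3.70e-05). Of the 10 tested Adam genes, the cell-surface relatives, 2 were higher and 2 lower in DC, with Adam10, a sheddase, at 84.3 against 28.1 (1.56; 0.0132) and Adam33 at 0.951 against 24.9 (-3.62; 0.000165). Of 5 tested plasminogen activation genes 0 were called between DC and Fb, and of 10 cathepsins and cystatins 0 were higher and 1 lower, counts near the shares over all rows.

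In Mc against Sch the called genes of these lists were mostly lower, where 4.53% of all rows were higher and 7.31% lower. Of 10 basement membrane genes 7 were lower and 0 higher, led by Col4a2 at 6.11 against 128 FPKM (log2 difference -4.20; limma adjusted p = 0.000151). Of 10 Adam genes 4 were lower, led by Adam23 at 0.460 against 132 (-6.51; 2.05e-07). In the plasminogen list 1 was higher, Plgrkt, a plasminogen receptor, at 165 against 30.3 (2.41; 3.55e-05), and 1 lower, Serpine2, a serine protease inhibitor, at 9.10 against 158 (-3.97; 4.69e-07). Between Pc and Epi, the 9 lists held 2 calls, Fap and Dpp4, both lower in Pc (1.37% of all rows).

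The replicates differed in the same direction across fractions for part of the family, as they did for part of all rows. Adamts10, Adamts14, Adamtsl5, Mmp2, Mmp11 and Mmp14 were higher in replicate 1 in 8 of 8 fractions, and Adamts5, Mmp16 and Timp3 were higher in replicate 2 in 8 of 8. These were 6 and 3 of the 35 tested members, where 12.6% and 19.9% of all tested rows did the same. The counts are descriptions and not a trait of the family. The transcripts of those 6 members held 54.3% to 61.7% GC and those of the 3 members 42.2% to 46.8%. Over all rows with a value (89.4%), median GC was 56.5% for rows always higher in replicate 1, 43.4% for rows always higher in replicate 2 and 50.2% for all. The part of GC content in these differences was not tested.

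**Figure D4:**
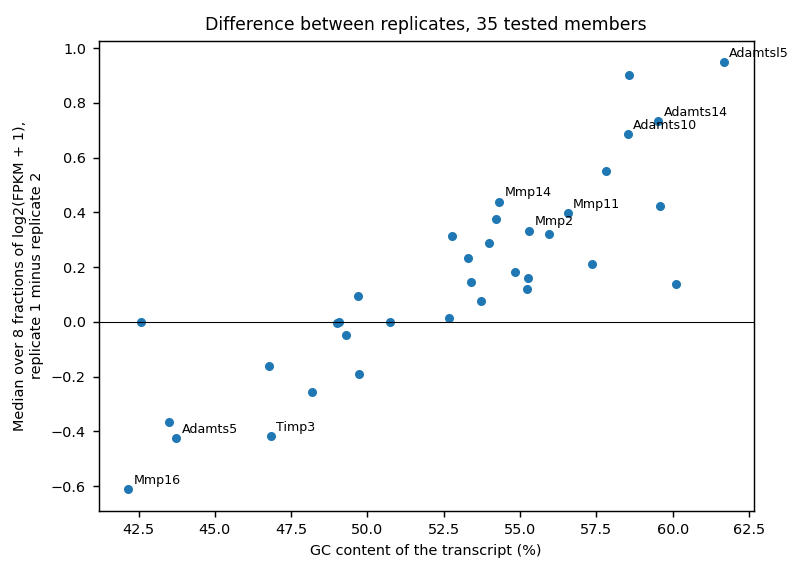
Median over 8 fractions of the replicate 1 minus replicate 2 difference in log2(FPKM + 1) (vertical axis) against the GC percent of the transcript (horizontal axis), 1 point per tested member. The named genes, those that differed the same way in 8 of 8 fractions, lie above 0 at 54.3% to 61.7% GC and below 0 at 42.2% to 46.8%.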

How the data were processed

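The authors deposited 1 table of FPKM values with 23235 rows and 16 library columns; the submitters' processing notes list the mm10 build with Cufflinks 2.1.1, Bowtie2 and TopHat2 2.0.3, and give neither roles nor settings. Per the labels' protocols, RNA was amplified to cDNA with a NuGEN kit before library construction. FPKM is relative to each library's own fragments, so an abundant transcript lowers the rest, and whether libraries were also scaled to each other is not stated. Sequencing depth is unknown, so no counting interval is given, and an exact 0 means only that a gene is listed at 0. A row's locus can span other genes, and whether counting used strand is not given in the sources used here. Positions are those of the file, 1-based.

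The analysis used R 4.3.3 with limma 3.58.1 (trended, robust spread) on log2(FPKM + 1), 1 mean per fraction over all 16 libraries, and the 14171 rows with at least 1 FPKM in at least 2 libraries; the step was tested on simulated data. Differences on this scale understate changes of low genes. Members, gene lists and comparisons were chosen with earlier results of these data known, so list counts are descriptions. Values in every library are given for members with a mean of 10 FPKM in some fraction, or called in DC, Mc or Pc comparisons or for a single fraction with at least 3 FPKM; from other lists, up to 4 called genes with at least 10 FPKM. Replicate numbers were read as pairing the samples, because same-numbered libraries deviated together in all 28 pairs of fractions (correlation 0.148 to 0.656, median 0.491). The model without a replicate term is the main one, so differences shared by same-numbered libraries stay in its spread. The replicate block takes them out. Alternatives were a pseudocount of 0.1, no filter, rescaled totals, quantile normalization, the replicate block and only the compared libraries. Each library of the fractions compared was also left out in turn, for single-fraction calls all but those of DCSch. Leaving out a library of another fraction was not scored for a pairwise call, although all fractions share the estimate of the spread. Python 3.11.15 with pandas 2.3.3 was used for the rest.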

Additional observations from a re-analysis of the deposited data

How the results depend on the processing

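No member that was called turned its direction under any alternative, and the member counts of the 6 pairwise comparisons stayed within 1.5 times their values. Libraries left out in turn were only those of the fractions compared. Leaving out 1 library at a time gave 0 members for Pc minus Epi, 20 to 22 for DC minus Fb, 11 to 13 for Mc minus Sch, 24 to 28 for Epi minus Fb, 16 to 20 for Sch minus Fb, 18 to 23 for Neg minus Fb and 9 to 11 higher in 1 fraction than in each of 6 others. The last count was 11, and 7 with a pseudocount of 0.1. With the replicate block the member counts were 0, 21, 14, 30, 19 and 22 in the same order and 12 for the last; beyond the genes given above where they are described, the block changed no call. Over all rows, the 216 calls of Pc minus Epi became 31 with a pseudocount of 0.1, 368 with the replicate block, 1 with only the 4 libraries compared and 67 to 184 on leaving out a library (67 without Pc replicate 2, 79 without Epi replicate 2, 107 without Epi replicate 1). With only the libraries compared, the calls over all rows fell to 1079 for DC minus Fb (2172) and 1311 for Neg minus Fb (2193), and the member calls were 17 and 16. That setting leaves 2 libraries a group for the spread. Further calls lost in 1 or more settings, all against Fb, were Adamts10, Adamtsl4, Mmp2 and Mmp27 in Epi, Adamts4 and Mmp25 in Sch, and Mmp17 and Mmp23 in Neg; the cause was not tested. The number of libraries, 2 a fraction, limits the precision of every value.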
